A study of Mus musculus with 9 samples.

Results

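The mitotic kinesins are motor proteins that build, move along and take apart the microtubules of a dividing cell. Here 10 of their genes were read out in newborn mouse hearts of 3 Cd36 genotypes, Cd36 being the gene of a fatty acid carrier: Kif4, Kif11, Kif14, Kif15, Kif18b, Kif20a, Kif20b, Kif22, Kif23 and Kif2c. They were taken by gene symbol from a deposited expression table of 56748 genes, and each of the 10 had 1 row. Of the 10, 8 had a mean of at least 1 FPKM over all 9 libraries and were among the 12206 genes tested, while Kif14 and Kif15 lay below that level. FPKM, fragments per kilobase of gene scaled to a library of fixed size, divides a gene's reads by its length and by library size, so levels can be set side by side between genes.

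The libraries were made by poly-A capture RNA sequencing of hearts taken from pups on postnatal day 1. They fall into 3 genotypes of 3 libraries each: a knockout of Cd36 in the entire body (CD36KO), a knockout of Cd36 limited to the heart (CD36CKO), and wild type (WT). The sources used here do not give the Cre driver of the CD36CKO hearts, the strain, the sex or the litter. The labels number the replicates but name no animals, so the p-values rest on library-to-library spread that may be technical.

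A dividing cell makes most of its mitotic kinesins shortly before and during mitosis and clears them afterwards, so their transcripts mark cells in the late cell cycle. Some of these motors set up the spindle with its separate poles, some move or attach the chromosomes, and others bundle the microtubules between the separating chromosomes and help to pinch the cell into daughter cells. Heart muscle cells of rodents still divide around birth and largely stop in the first days of life, and endothelial and stromal cells of the newborn heart divide as well. In a whole heart, fewer dividing cells and less kinesin RNA per cell cannot be told apart.

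Cd36, the targeted gene, was at 72.4, 64.0 and 60.6 FPKM in CD36KO, at 201, 183 and 163 FPKM in CD36CKO, and at 163, 150 and 125 FPKM in WT. It was lower in CD36KO than in WT by a log2 difference of -1.14 (limma, adjusted p = 0.00345). The libraries labelled CD36CKO did not show a lower Cd36 level: the log2 difference from WT was 0.32 (limma, adjusted p = 0.153). Each CD36CKO result is therefore a result for the libraries that carry this label. Each library held 14408631 to 20725356 reads, as recovered from the FPKM steps. The Y-linked gene Ddx3y was read in CD36KO replicate 3 at 9.72 FPKM and in CD36CKO replicate 3 at 6.19 FPKM, against at most 0.0820 FPKM in each other library. The female-expressed RNA Xist was at 0.317 and 0.160 FPKM in these libraries, against 12.3 to 25.8 FPKM in the others. By these genes replicate 3 of each knockout read as male and all other libraries, with all of WT, as female. Sex was therefore not balanced between WT and the knockouts. CD36CKO replicate 3 also held 3591 FPKM summed over 10 skeletal muscle markers, against 386 to 768 FPKM in the other libraries. Cardiomyocyte markers were abundant in all 9 libraries, as the heart label requires: 8 of them summed to 15463 to 18656 FPKM in CD36KO, 13742 to 17083 FPKM in CD36CKO and 14956 to 24022 FPKM in WT.

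Many late cell cycle genes carry in their promoters a CHR element (cell cycle genes homology region), which binds the DREAM and MuvB complexes, and CCAAT boxes, which bind the factor NF-Y. The stretch around the transcription start sites of the kinesins is shown here for the 7 that hold a CHR in it. RefSeq promoter windows (mouse build GRCm38.p6, 250 bases before to 50 bases after the start) were matched by symbol for 9 of the 10 genes. No window was available for Kif20a. Each line gives 85 bases, from 60 before to 25 after the start, on the gene's own strand, 5′ to 3′. Capitals mark the CHR, searched as TTTGAA or TTCGAA, and the CCAAT box, each on both strands, so that they also read TTCAAA and ATTGG.
Kif4 (chrX:100626005-100626089, plus strand): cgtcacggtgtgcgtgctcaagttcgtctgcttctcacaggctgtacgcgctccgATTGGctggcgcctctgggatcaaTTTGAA
Kif11 (chr19:37376322-37376406, plus strand): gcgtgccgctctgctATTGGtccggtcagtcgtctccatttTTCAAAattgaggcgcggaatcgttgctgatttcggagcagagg
Kif15 (chr9:122951021-122951105, plus strand): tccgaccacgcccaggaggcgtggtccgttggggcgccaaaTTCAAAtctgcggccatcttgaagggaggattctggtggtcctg
Kif18b (chr11:102925100-102925184, minus strand): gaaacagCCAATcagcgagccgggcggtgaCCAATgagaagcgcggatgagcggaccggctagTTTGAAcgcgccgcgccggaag
Kif20b (chr19:34922298-34922382, plus strand): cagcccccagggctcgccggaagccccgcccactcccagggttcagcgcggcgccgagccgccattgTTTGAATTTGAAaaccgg
Kif22 (chr7:127042396-127042480, minus strand): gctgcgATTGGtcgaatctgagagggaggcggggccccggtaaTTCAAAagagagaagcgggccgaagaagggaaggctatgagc
Kif23 (chr9:61946775-61946859, minus strand): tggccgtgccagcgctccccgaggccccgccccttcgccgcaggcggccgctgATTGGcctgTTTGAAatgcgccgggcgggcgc
A CHR lay in the full window of 9 of 9 kinesin promoters, against 19.2% of all 32851 RefSeq promoter windows of this length. A CCAAT box lay in 6 of 9, against 37.4% of all windows, and both lay in 6 of 9, against 7.52%. In the 85 bases shown, 7 of 9 held a CHR, against 4.72% of all windows cut to the same stretch. Kif20b holds 2 CHR elements in direct succession, 8 and 14 bases after the start. The CHR of Kif2c began 103 bases and that of Kif14 228 bases before the start, outside the stretch shown. Such a match describes letters in a window and is not evidence of binding. Whether these letters bear on the kinesin levels was not tested.

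**Figure D1:**
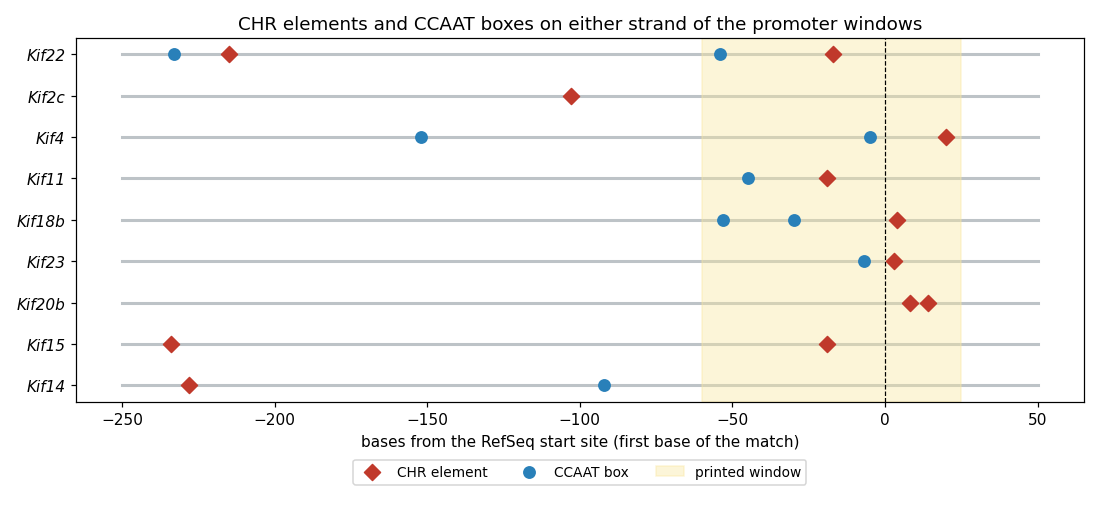
Positions of CHR elements (red diamonds) and CCAAT boxes (blue circles), on either strand, in the 9 promoter windows; the horizontal axis is the distance in bases from the RefSeq start site, and the shaded band is the stretch whose letters are given. In 7 of the 9 promoters a CHR falls inside the shaded band, and in Kif2c and Kif14 it lies farther upstream, at 103 and 228 bases before the start.

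The kinesins were lowest in CD36CKO, intermediate in CD36KO and highest in WT. Summed over the 10 genes, the level was 21.3, 24.9 and 30.3 FPKM in CD36KO (25.5 ± 4.52, SD, n = 3), 9.24, 8.55 and 11.9 FPKM in CD36CKO (9.91 ± 1.80) and 36.2, 39.4 and 59.3 FPKM in WT (45.0 ± 12.5). CD36KO thus held 56.6% and CD36CKO 22.0% of the WT sum, and no library of one genotype reached the range of another. Gene by gene, the CD36KO mean was 45.8% (Kif2c) to 115% (Kif15) of the WT mean, with a median of 63.4%. The CD36CKO mean was 15.4% (Kif4) to 36.0% (Kif15) of the WT mean, with a median of 24.2%. All CD36CKO libraries lay below all WT libraries for 10 of 10 kinesins, a pattern that 17% of all tested genes showed. All CD36KO libraries lay below all WT libraries for 6 of 10, against 17.8% of all tested genes. All CD36KO libraries lay above all CD36CKO libraries for 10 of 10, against 19.4% of all tested genes.

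**Figure D2:**
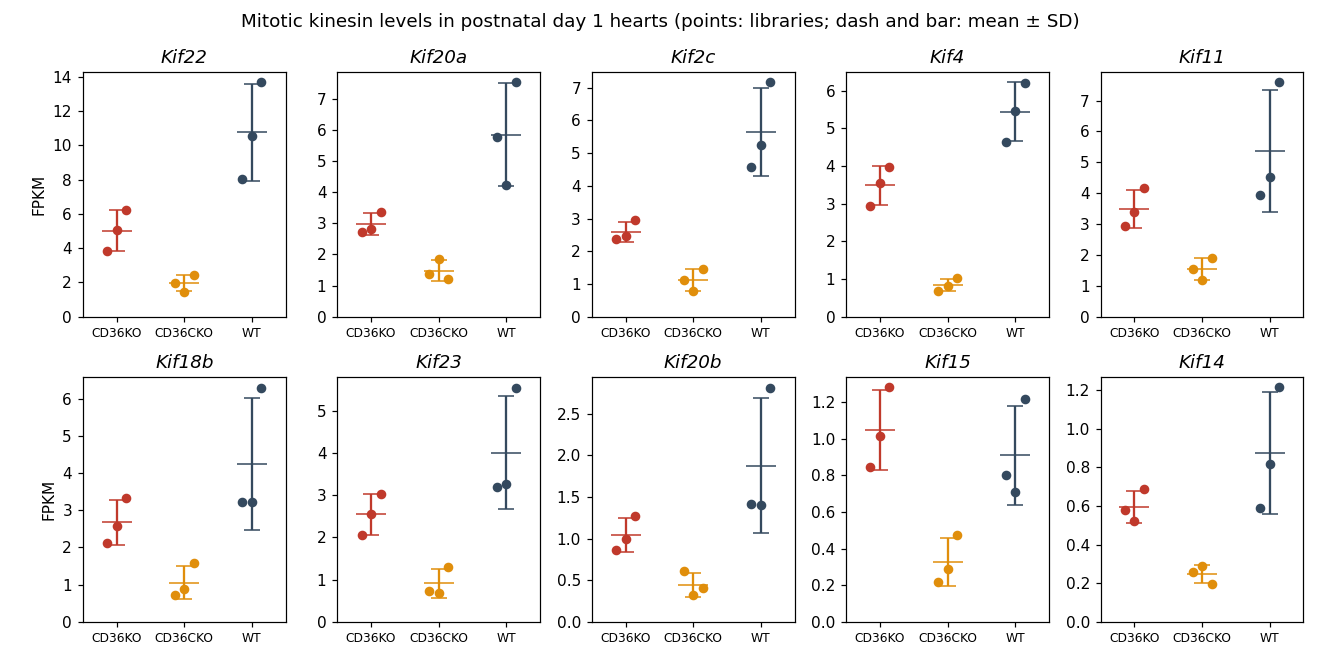
FPKM of each of the 10 mitotic kinesins in each library; points are libraries, the long dash is the group mean and the bar is ± SD (n = 3 libraries per genotype), and each panel has its own axis starting at 0. In every panel the CD36CKO points lie below those of both other genotypes, and in the Kif15 panel alone the CD36KO mean lies above the WT mean.

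Of the motors that act on chromosome arms, Kif22 was the most abundant kinesin of the 10 in each genotype. KIF22 is a chromokinesin that binds DNA and pushes chromosome arms towards the middle of the spindle. In the deposited table, whose build is not stated, it is ENSMUSG00000030677 on chromosome 7, 126626901 to 126641643, minus strand. Its level was 3.85, 5.04 and 6.20 FPKM in CD36KO, 1.99, 1.45 and 2.40 FPKM in CD36CKO, and 8.03, 10.6 and 13.7 FPKM in WT. The 3 groups did not overlap. Kif22 fell in CD36KO relative to WT by 0.95 on the log2(FPKM + 1) scale (SE 0.21, limma adjusted p = 0.0201) and in CD36CKO by 1.98 (SE 0.21, adjusted p = 0.00102). It was higher in CD36KO than in CD36CKO by 1.03 (adjusted p = 0.0259).

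Kif4 encodes the other chromokinesin, which helps to compact chromosomes and later limits the length of the overlapping microtubules between them (ENSMUSG00000034311, chromosome X, 99669343 to 99770820, plus strand). Its level was 2.93, 3.55 and 3.97 FPKM in CD36KO, 0.686, 0.804 and 1.02 FPKM in CD36CKO, and 4.64, 5.46 and 6.21 FPKM in WT. All 3 groups were apart, and the CD36CKO mean was 24.0% of the CD36KO mean, the lowest such ratio of the 10 genes. Kif4 fell by 0.52 in CD36KO (SE 0.13, limma adjusted p = 0.0349) and by 1.81 in CD36CKO relative to WT (SE 0.13, adjusted p = 0.000306), and it was higher in CD36KO than in CD36CKO by 1.28 (adjusted p = 0.00804). Kif4 had the fourth highest mean of the 10 in WT and the third in CD36KO, but the seventh in CD36CKO. Its share of the summed kinesin level was 13.1% to 14.2% in CD36KO, 7.42% to 9.41% in CD36CKO and 10.5% to 13.9% in WT, a comparison singled out after the values were seen and not tested. In the table the Kif4 interval overlaps Pdzd11 on the other strand, at a mean of 12.3 FPKM over the 9 libraries, and the sources used here do not say whether counting used the strand.

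Kif11 and Kif15 keep the spindle poles apart. KIF11, also called Eg5, slides microtubules of opposite direction past each other (ENSMUSG00000012443, chromosome 19, 37364851 to 37410307, plus strand). Kif11 was at 2.92, 3.38 and 4.16 FPKM in CD36KO, 1.55, 1.19 and 1.91 FPKM in CD36CKO, and 3.94, 4.53 and 7.61 FPKM in WT. CD36CKO lay below both other groups, whereas the highest CD36KO library overlapped the lowest WT library. Kif11 fell in CD36CKO by 1.29 relative to WT (SE 0.21, limma adjusted p = 0.00681). The difference of CD36KO from WT was -0.47 (95% interval -0.93 to -0.01, adjusted p = 0.158) and that of CD36KO from CD36CKO was 0.82 (adjusted p = 0.0563), and neither was called.

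KIF15 can take over part of the task of KIF11 (ENSMUSG00000036768, chromosome 9, 122780111 to 122847798, plus strand). Kif15 was at 0.845, 1.01 and 1.28 FPKM in CD36KO, 0.219, 0.290 and 0.472 FPKM in CD36CKO, and 0.800, 0.710 and 1.22 FPKM in WT. CD36KO and WT overlapped over nearly their whole ranges, and CD36CKO lay below both. Kif15 stood below the filter, so its fitted differences come from a fit of all genes with no filter on low values: 0.10 for CD36KO minus WT (95% interval -0.22 to 0.43, limma adjusted p = 0.763), -0.52 for CD36CKO minus WT (adjusted p = 0.106) and 0.62 for CD36KO minus CD36CKO (adjusted p = 0.106). None passed the threshold of 0.05, and on the log2(FPKM + 1) scale changes of genes this low are understated. Kif15 made up 3.97% to 4.24% of the summed kinesin level in CD36KO, 2.37% to 3.95% in CD36CKO and 1.80% to 2.21% in WT, and so took a larger share in each knockout library than in any WT library. The same held for Kif11, at 13.6% to 13.8% in CD36KO, 13.9% to 16.8% in CD36CKO and 10.9% to 12.8% in WT. These comparisons of shares were singled out after the values were seen and were not tested.

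Kif2c and Kif18b shorten microtubules at their ends. KIF2C, also called MCAK, sits at centromeres and removes wrongly attached spindle fibres (ENSMUSG00000028678, chromosome 4, 117016836 to 117039836, minus strand). Kif2c was at 2.38, 2.45 and 2.94 FPKM in CD36KO, 1.10, 0.782 and 1.47 FPKM in CD36CKO, and 4.57, 5.24 and 7.17 FPKM in WT. The groups did not overlap, and the CD36KO mean was 45.8% of the WT mean, the lowest of the 10 genes. Kif2c fell by 0.88 in CD36KO (SE 0.17, limma adjusted p = 0.0132) and by 1.65 in CD36CKO relative to WT (SE 0.17, adjusted p = 0.000923), and it was higher in CD36KO than in CD36CKO by 0.77 (adjusted p = 0.0336).

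KIF18B shortens the astral microtubules that run from the poles to the cell cortex (ENSMUSG00000051378, chromosome 11, 102796355 to 102815950, minus strand). Kif18b was at 2.13, 2.59 and 3.32 FPKM in CD36KO, 0.714, 0.883 and 1.57 FPKM in CD36CKO, and 3.22, 3.22 and 6.30 FPKM in WT. One CD36KO library exceeded 2 of the WT libraries, and CD36CKO stood apart from both. Kif18b fell in CD36CKO by 1.32 relative to WT (SE 0.24, limma adjusted p = 0.0108). Its difference was -0.48 for CD36KO minus WT (95% interval -1.01 to 0.06, adjusted p = 0.208) and 0.85 for CD36KO minus CD36CKO (adjusted p = 0.0751).

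Kif20a, Kif23, Kif20b and Kif14 act at the spindle midzone and in cytokinesis. KIF20A carries the Aurora B complex from the centromeres to the midzone (ENSMUSG00000003779, chromosome 18, 34757666 to 34766330, plus strand). Kif20a was at 2.73, 2.81 and 3.38 FPKM in CD36KO, 1.38, 1.85 and 1.20 FPKM in CD36CKO, and 5.79, 4.23 and 7.56 FPKM in WT. The groups did not overlap, and Kif20a had the highest ratio of CD36CKO to CD36KO means of the 10 genes, 49.7%. Kif20a fell by 0.76 in CD36KO (SE 0.18, limma adjusted p = 0.0263) and by 1.45 in CD36CKO relative to WT (SE 0.18, adjusted p = 0.00214), while CD36KO minus CD36CKO was 0.69 (adjusted p = 0.0599). The gene overlaps Cdc23 on the other strand, at a mean of 4.12 FPKM.

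KIF23 pairs with RACGAP1 in the centralspindlin complex, which bundles midzone microtubules (ENSMUSG00000032254, chromosome 9, 61823187 to 61854056, minus strand). Kif23 was at 2.06, 2.56 and 3.04 FPKM in CD36KO, 0.736, 0.691 and 1.30 FPKM in CD36CKO, and 3.20, 3.26 and 5.55 FPKM in WT. The groups were apart, though the highest CD36KO value lay close to the lowest WT value. Kif23 fell by 1.37 in CD36CKO relative to WT (SE 0.20, limma adjusted p = 0.00458) and was higher in CD36KO than in CD36CKO by 0.90 (adjusted p = 0.0363). CD36KO minus WT was -0.47 (95% interval -0.92 to -0.03, adjusted p = 0.144).

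KIF20B works in the last step of cytokinesis (ENSMUSG00000024795, chromosome 19, 34899761 to 34953145, plus strand). Kif20b was at 0.865, 0.996 and 1.27 FPKM in CD36KO, 0.604, 0.319 and 0.404 FPKM in CD36CKO, and 1.41, 1.41 and 2.81 FPKM in WT. The groups did not overlap. Kif20b fell by 0.97 in CD36CKO relative to WT (SE 0.19, limma adjusted p = 0.0151), and its difference was -0.46 for CD36KO minus WT (adjusted p = 0.135) and 0.50 for CD36KO minus CD36CKO (adjusted p = 0.161). KIF14 binds PRC1 and citron kinase at the midbody (ENSMUSG00000041498, chromosome 1, 136394081 to 136459249, plus strand). Kif14 was the lowest of the 10 genes, at 0.577, 0.520 and 0.685 FPKM in CD36KO, 0.255, 0.288 and 0.196 FPKM in CD36CKO, and 0.588, 0.815 and 1.22 FPKM in WT. CD36CKO lay below both other groups, and 1 CD36KO library exceeded the lowest WT library. In the fit with no filter on low values none of the differences of Kif14 and Kif15 was called, against 1.33% of 30506 genes called lower in CD36KO minus WT, 1.54% lower in CD36CKO minus WT and 0.295% higher in CD36KO minus CD36CKO. The Kif14 differences were -0.22 for CD36KO minus WT (limma adjusted p = 0.442), -0.57 for CD36CKO minus WT (adjusted p = 0.0594) and 0.35 for CD36KO minus CD36CKO (adjusted p = 0.281). The kinesin values of single libraries rest on 34 reads (Kif14 in CD36CKO replicate 3) to 1232 reads (Kif22 in WT).

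Across the 10 genes, the order of the levels in WT ran from Kif22 (10.8 ± 2.84 FPKM) through Kif20a (5.86 ± 1.67), Kif2c (5.66 ± 1.35), Kif4 (5.44 ± 0.781), Kif11 (5.36 ± 1.97), Kif18b (4.25 ± 1.78) and Kif23 (4.0 ± 1.34) to Kif20b (1.88 ± 0.810), Kif15 (0.909 ± 0.270) and Kif14 (0.873 ± 0.317; SD, n = 3 for each). Kif22 lay above the other 9 genes in every WT comparison of libraries, the genes from Kif20a to Kif23 overlapped one another, and Kif15 and Kif14 could not be ordered beyond their spread. Kif22 also had the highest mean in CD36KO (5.03 ± 1.18 FPKM) and in CD36CKO (1.95 ± 0.477 FPKM), but there its libraries overlapped those of Kif11, at 3.49 ± 0.628 FPKM in CD36KO and 1.55 ± 0.360 FPKM in CD36CKO.

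Set against all tested genes, 4 of the 8 tested kinesins were called lower in CD36KO than in WT (Kif2c, Kif22, Kif20a and Kif4), against 6.7% of all tested genes called lower. None was called higher, at an unadjusted p under 0.05 or by voom on recovered reads either, while 7 were lower at an unadjusted p under 0.05. Their median log2 difference was -0.50, against -0.01 over all tested genes, and the 8 values lay between -0.95 and -0.46. All 4 calls were lost without CD36KO replicate 1. There was 1 call without CD36KO replicate 2, there were 2 without CD36KO replicate 3 or WT replicate 2, and there were 3 without CD36CKO replicate 2 or WT replicate 1. No kinesin was called without both libraries that expressed Ddx3y, or when mitochondrial and haemoglobin genes were removed before scaling, while the sign of the 8 differences was negative in each of these fits.

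In CD36CKO, 8 of the 8 tested kinesins fell relative to WT, against 7.32% of all tested genes called lower. The differences lay between -1.98 and -0.97, with a median of -1.41, against 0.00 over all tested genes. The count was 7 without both Ddx3y-expressing libraries, with Kif20b lost. Without CD36CKO replicate 2 it was 6, with Kif18b and Kif20b lost, and with any other single library left out it was 8. The filter used the mean of all 9 libraries, so a gene could pass through the groups where it was high. Kif20b passed at 1.12 FPKM, with means of 0.442 FPKM in CD36CKO, 1.04 FPKM in CD36KO and 1.88 FPKM in WT. Both comparisons use the same WT libraries and are therefore not independent. In the direct comparison of CD36KO with CD36CKO, 4 of the 8 were higher in CD36KO (Kif4, Kif22, Kif23 and Kif2c), against 2.61% of all tested genes called higher. The median was 0.83, against 0.00 over all tested genes, and the 8 values lay between 0.50 and 1.28. The count was 1 (Kif4) without CD36KO replicate 2 or 3 or without CD36CKO replicate 1 or 2, it was 2 without CD36KO replicate 1, and it was 8 without WT replicate 3, which enters this comparison only through the shared spread.

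**Figure D3:**
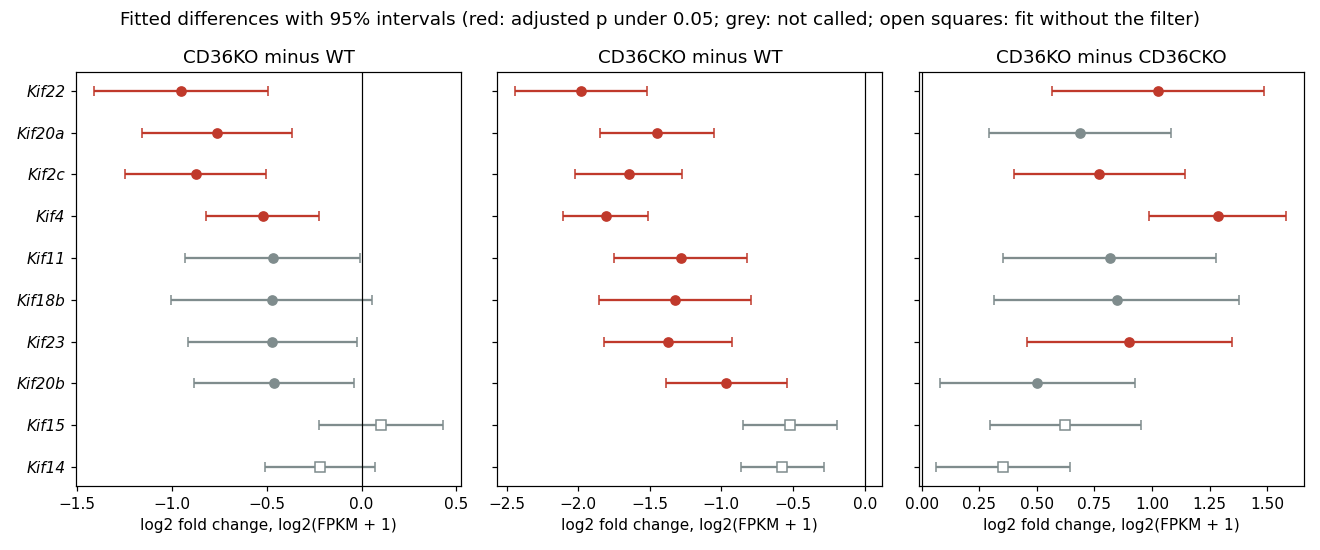
Fitted log2 differences of the 10 mitotic kinesins on the log2(FPKM + 1) scale, one panel per comparison; points are estimates, bars are 95% intervals, red marks an adjusted p under 0.05 over all tested genes, grey marks genes not called, and open squares (Kif15, Kif14) come from the fit with no filter on low values. In CD36CKO minus WT all 8 tested genes are red, from -1.98 (Kif22) to -0.97 (Kif20b), while in CD36KO minus WT 4 are red and the point of Kif15 lies at 0.10.

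Other measures of the samples also differed between WT and the knockouts. Mitochondrial genes took 11.9%, 11.1% and 14.3% of reads in CD36KO, 10.3%, 10.3% and 12.2% in CD36CKO, and 6.02%, 4.55% and 8.89% in WT. With mitochondrial and haemoglobin genes removed before scaling, the median of all tested genes shifted by 0.11 in CD36KO minus WT and by 0.22 in CD36CKO minus WT, and the kinesins called lower were 0 and 8. The summed level of 11 atrial muscle markers was 198 to 1424 FPKM in CD36KO, 707 to 2180 FPKM in CD36CKO and 4288 to 6970 FPKM in WT. Of the 11, 8 were called lower in CD36KO and 5 in CD36CKO than in WT, against 6.7% and 7.32% of all tested genes. None of the 11 was at 0 in all 9 libraries. The atrial level used as a covariate was the mean log2(FPKM + 1) of the 11 markers. With this covariate, no kinesin was called in CD36KO minus WT, and 1 (Kif4) was called in CD36CKO minus WT. The median difference of the 8 tested kinesins was -0.47 in CD36KO and -1.42 in CD36CKO, against -0.50 and -1.41 without the covariate. Since the atrial sums of WT did not overlap those of the knockouts, genotype and atrial level cannot be told apart here.

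The kinesins also varied together between libraries of 1 genotype. Relative to each gene's own WT mean, the median over the 10 genes was 50.8%, 60.2% and 74.5% in CD36KO replicates 1, 2 and 3, 21.6%, 19.0% and 24.2% in CD36CKO, and 77.8%, 83.0% and 136% in WT. WT replicate 3 was the highest WT library for 10 of 10 genes, and CD36KO replicate 3 was the highest CD36KO library for 10 of 10. CD36CKO replicate 3 was the highest of its group for 7 of 10. As a description over 9 libraries that share genotype differences, the Pearson correlation of each gene with the mean of the other members ran from 0.834 (Kif15) to 0.992 (Kif23). After the genotype means were removed it ran from 0.527 (Kif20a) to 0.970 (Kif11). Kif15 was the least correlated partner of each of the other 9 genes.

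**Figure D4:**
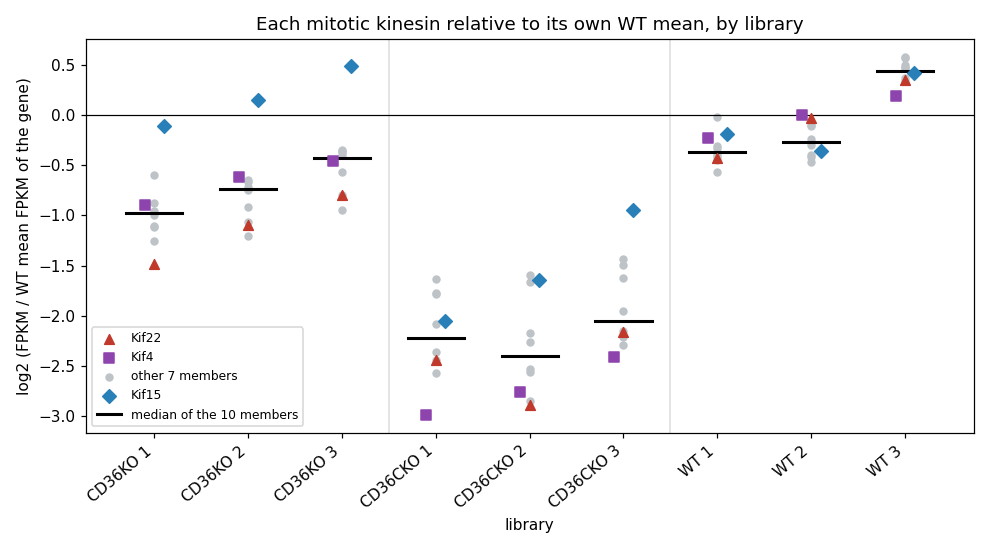
Log2 ratio of each mitotic kinesin to its own WT mean FPKM in each of the 9 libraries; black dashes are the median of the 10 genes, and Kif22, Kif4 and Kif15 are marked. The medians are all below 0 in the knockout libraries and lowest in CD36CKO, Kif15 sits at the top of each CD36KO library, and Kif4 sits at the bottom of CD36CKO replicates 1 and 3.

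The protein-coding genes whose log2(FPKM + 1) over the 9 libraries was most like the mean standardised level of the 8 tested kinesins were Ckap2l and Ccnb1 (Pearson r = 0.995 each), Plk1 and Gtse1 (0.992 each), Iqgap3 and Racgap1 (0.991 each), Ska3 (0.990) and Cenpe (0.990). These genes were picked for likeness over the same 9 libraries, so their lower levels in the knockouts follow from the choice. Ccnb1 encodes cyclin B1, the partner of the kinase that starts mitosis, and its CD36KO mean was 45.0% and its CD36CKO mean 15.2% of the WT mean. Ska3 belongs to a complex that holds kinetochores on microtubules, and its mean was 60.0% of the WT mean in CD36KO and 20.2% in CD36CKO.

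Of 6 other kinesins with a role in mitosis, 4 were tested, and 2 of these fell in CD36KO and 3 in CD36CKO relative to WT. Of all tested genes, 6.7% were called lower in CD36KO and 7.32% in CD36CKO. The CD36KO count was 1 without any one of the CD36KO replicates or WT replicate 1, and the CD36CKO count was 2 without any one of the CD36CKO or CD36KO replicates. Kifc1, a minus-end-directed motor that focuses spindle poles, was at 6.74, 6.63 and 9.69 FPKM in CD36KO, 2.66, 2.27 and 3.98 FPKM in CD36CKO, and 15.2, 17.8 and 25.8 FPKM in WT. The groups did not overlap. Kifc1 fell by 1.23 in CD36KO (limma adjusted p = 0.0114) and by 2.37 in CD36CKO (adjusted p = 0.000747), and it was higher in CD36KO than in CD36CKO by 1.14 (adjusted p = 0.0231). Its near copy Kifc5b, which may share reads with it, fell by 1.16 in CD36CKO (adjusted p = 0.0365) and differed by -0.73 in CD36KO (adjusted p = 0.136). Cenpe, a kinetochore motor that brings chromosomes to the spindle middle, fell by 0.76 in CD36KO (limma adjusted p = 0.0282) and by 1.48 in CD36CKO (adjusted p = 0.00215). Kif2a, a relative of Kif2c that also acts in neurons, differed by 0.25 in CD36KO (adjusted p = 0.165) and by 0.13 in CD36CKO (adjusted p = 0.436). Kif18a lay below the filter and Kif2b was at 0 in all libraries.

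Of 27 kinesins that carry cargo or work in cilia, 15 were tested, with 1 called higher in CD36KO (Kif16b, 0.46, limma adjusted p = 0.0445) and 1 called higher in CD36CKO (Kifc2, 0.51, adjusted p = 0.0277). These shares stand beside 5.81% of all tested genes called higher in CD36KO and 5.36% in CD36CKO. None of the 15 was called lower by limma or by voom on recovered reads, with 2 lower in CD36KO and 0 in CD36CKO at an unadjusted p under 0.05, but quantile normalization called 2 lower in CD36KO, and library weights called 2 lower in CD36KO and 1 in CD36CKO. The list medians were 0.02 and 0.15. The count called higher in CD36KO was 0 without any one library other than WT replicate 3. In CD36CKO no gene was called without CD36CKO replicate 2 or 3 or WT replicate 1 or 2, and 2 were called higher and 1 lower without WT replicate 3. Kif5b, a conventional cargo motor given here as an abundant example chosen after its values were seen, was at 16.4, 12.3 and 15.3 FPKM in CD36KO, 18.1, 13.8 and 10.4 FPKM in CD36CKO, and 12.7, 10.6 and 13.7 FPKM in WT, with all 3 groups overlapping. Of 5 tested light chains and adaptors, none was called in CD36KO by limma or voom, with 2 at an unadjusted p under 0.05, and Kifbp was higher in CD36CKO (0.33, adjusted p = 0.0351). Library weights called 1 higher and 3 lower in CD36KO, and 1 was called lower without WT replicate 3, while the count in CD36CKO was 0 in each fit that left out a library other than WT replicate 3. Of 21 tested subunits and regulators of dynein, the motor that runs the other way along microtubules, Dynlt3 rose in CD36KO (0.43, adjusted p = 0.03), and Nde1 (-0.73, adjusted p = 0.0204) and Actr1a (-0.36, adjusted p = 0.0463) fell in CD36CKO. These few calls stand beside 5.81% of all tested genes called higher in CD36KO and 7.32% called lower in CD36CKO. With 1 library left out, 0 to 3 of the 21 were called higher and 0 to 4 lower in CD36KO, and 0 to 2 higher and 0 to 7 lower in CD36CKO, with the highest counts without WT replicate 3.

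Of 9 tested partners of the midzone kinesins, 4 fell in CD36KO (median -0.59) and 9 in CD36CKO (median -1.42), and 6 were higher in CD36KO than in CD36CKO. The shares of all tested genes called in these directions were 6.7%, 7.32% and 2.61%. Racgap1, the partner of KIF23, was at 7.45, 7.65 and 9.03 FPKM in CD36KO, 2.44, 2.22 and 3.43 FPKM in CD36CKO, and 11.4, 13.9 and 19.4 FPKM in WT, with no overlap between the groups. It fell by 0.79 in CD36KO (limma adjusted p = 0.0282) and by 2.09 in CD36CKO (adjusted p = 0.000659). The other 3 genes that fell in CD36KO were Plk1, a kinase that helps to trigger cytokinesis (-0.93), and the Aurora B complex members Birc5 (-1.05) and Cdca8 (-0.92). The CD36KO count was 0 without CD36KO replicate 1 or 2, 2 without WT replicate 2 and 3 without CD36KO replicate 3, and the CD36KO median was -0.32 without WT replicate 3. The CD36CKO count was at least 7 with any single library left out. The count higher in CD36KO than in CD36CKO was 0 without CD36KO replicate 3, 1 without CD36CKO replicate 2, 2 without CD36KO replicate 2, 3 without CD36CKO replicate 1 and 4 without CD36KO replicate 1, with a median difference of 0.94 to 1.20 over the 9 fits.

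Spindle partners divided by gene. Of 14 tested, 2 fell in CD36KO and 6 in CD36CKO, against 6.7% and 7.32% of all tested genes called lower. The list medians were -0.18 and -0.16. With mitochondrial and haemoglobin genes removed, the CD36CKO median was 0.07, so it has no settled direction. The CD36KO count was 1 without CD36KO replicate 1 or 2. Hmmr, which helps to place the spindle, fell by 0.93 in CD36KO (limma adjusted p = 0.00736) and by 1.90 in CD36CKO (adjusted p = 0.000306). Aurka, a spindle pole kinase, fell by 1.03 in CD36KO (adjusted p = 0.021), and Tpx2, which activates it, fell by 1.80 in CD36CKO (adjusted p = 0.00102).

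Tubulins are the building blocks of the microtubule track. Of 14 tested, 2 rose in CD36KO relative to WT (Tuba8, 1.44, limma adjusted p = 0.0217, and Tuba4a, 1.03, adjusted p = 0.0476) and 2 fell (Tubb2b, -0.74, adjusted p = 0.0236, and Tubb4b, -0.65, adjusted p = 0.0499). In CD36CKO 10 of the 14 fell, with a median of -1.07, and 10 were higher in CD36KO than in CD36CKO. Of all tested genes, 5.81% were called higher and 6.7% lower in CD36KO, and 7.32% lower in CD36CKO. The share called higher in CD36KO than in CD36CKO was 2.61%. Tubb5, an abundant beta tubulin of dividing cells, was at 252, 225 and 253 FPKM in CD36KO, 125, 99.8 and 145 FPKM in CD36CKO, and 260, 342 and 337 FPKM in WT. CD36CKO lay far below both other groups, and Tubb5 fell by 1.35 in it relative to WT (adjusted p = 0.0025). The CD36CKO count was 7 to 10 with 1 library left out. Leaving out CD36KO replicate 3 left no tubulin called in CD36KO minus WT, and none was called higher there without CD36KO replicate 1 or WT replicate 1, or lower without CD36KO replicate 2 or WT replicate 2. The count higher in CD36KO than in CD36CKO was 0 without CD36KO replicate 3 or CD36CKO replicate 2, 1 without CD36KO replicate 1, 4 without CD36KO replicate 2 and 5 without CD36CKO replicate 3, with a median difference of 0.81 to 1.05 over the 9 fits. Tubulin genes are similar in sequence, and the sources used here do not say how reads were split between them.

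Regulators of late cell cycle genes were called in both directions, in few cases. Of 14 tested, 3 rose and 1 fell in CD36KO, and 1 rose and 2 fell in CD36CKO, beside 5.81% of all tested genes called higher and 6.7% called lower in CD36KO, and 5.36% higher and 7.32% lower in CD36CKO. The 3 higher in CD36KO numbered 1 without CD36KO replicate 2 or 3 or WT replicate 1 and 2 without CD36KO replicate 1 or WT replicate 2, and the 1 lower there was lost without CD36KO replicate 1 or 3, with 3 lower without WT replicate 3. The 2 lower in CD36CKO numbered 0 without CD36CKO replicate 2 and 1 without CD36CKO replicate 1, any one of the CD36KO replicates, or WT replicate 1 or 2, and 2 were called higher there without WT replicate 3. Foxm1, which activates G2 and mitosis genes, was at 4.08, 4.93 and 6.50 FPKM in CD36KO, 1.58, 1.47 and 3.40 FPKM in CD36CKO, and 5.93, 5.57 and 9.20 FPKM in WT. It fell by 1.35 in CD36CKO (limma adjusted p = 0.0123), while CD36KO overlapped WT. Mybl2, the B-Myb subunit that turns MuvB into an activator, was at 2.66, 3.30 and 3.41 FPKM in CD36KO, 0.643, 0.552 and 1.16 FPKM in CD36CKO, and 1.72, 1.34 and 2.04 FPKM in WT. Its CD36KO libraries lay above and its CD36CKO libraries below all WT libraries: it rose by 0.61 in CD36KO (adjusted p = 0.0361) and fell by 0.60 in CD36CKO (adjusted p = 0.0381). E2f1, an activator of DNA synthesis genes, rose by 0.74 in CD36KO (adjusted p = 0.0279), and Nfya, a subunit of the CCAAT-binding factor NF-Y, rose in both knockouts, by 0.57 in CD36KO (adjusted p = 0.00823) and by 0.71 in CD36CKO (adjusted p = 0.00309). Lin37, a MuvB subunit, fell by 0.74 in CD36KO (adjusted p = 0.0149). Without the Ddx3y-expressing libraries none of the 14 was called in CD36KO minus WT.

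The MCM helicase, which unwinds DNA in S phase before the kinesins act, went the other way in CD36KO. Of 6 tested subunits, 5 rose in CD36KO relative to WT, and none was called in CD36CKO, where 2 had an unadjusted p under 0.05 (Mcm4 higher, Mcm7 lower), voom on recovered reads called none and the median was -0.16. Of all tested genes, 5.81% were called higher in CD36KO, and 5.36% higher and 7.32% lower in CD36CKO. Mcm4 was at 7.96, 8.77 and 8.81 FPKM in CD36KO, 4.49, 3.91 and 5.40 FPKM in CD36CKO, and 3.75, 3.55 and 3.20 FPKM in WT. All CD36KO libraries were above all others, and Mcm4 rose by 1.08 in CD36KO (limma adjusted p = 0.00224). Mcm2, Mcm3, Mcm5 and Mcm6 rose by 0.98, 0.97, 0.88 and 0.70. Mcm7 differed least in CD36KO, by -0.05. The count in CD36KO was 3 without CD36KO replicate 2 or 3 or WT replicate 1. In CD36CKO the median turned to 0.09 with mitochondrial and haemoglobin genes removed, so that it has no settled direction, and 1 subunit was called lower there without CD36CKO replicate 3 or WT replicate 3. Higher in CD36KO than in CD36CKO were 5 subunits, against 2.61% of all tested genes, but 1 without CD36KO replicate 3 or CD36CKO replicate 2.

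**Figure D5:**
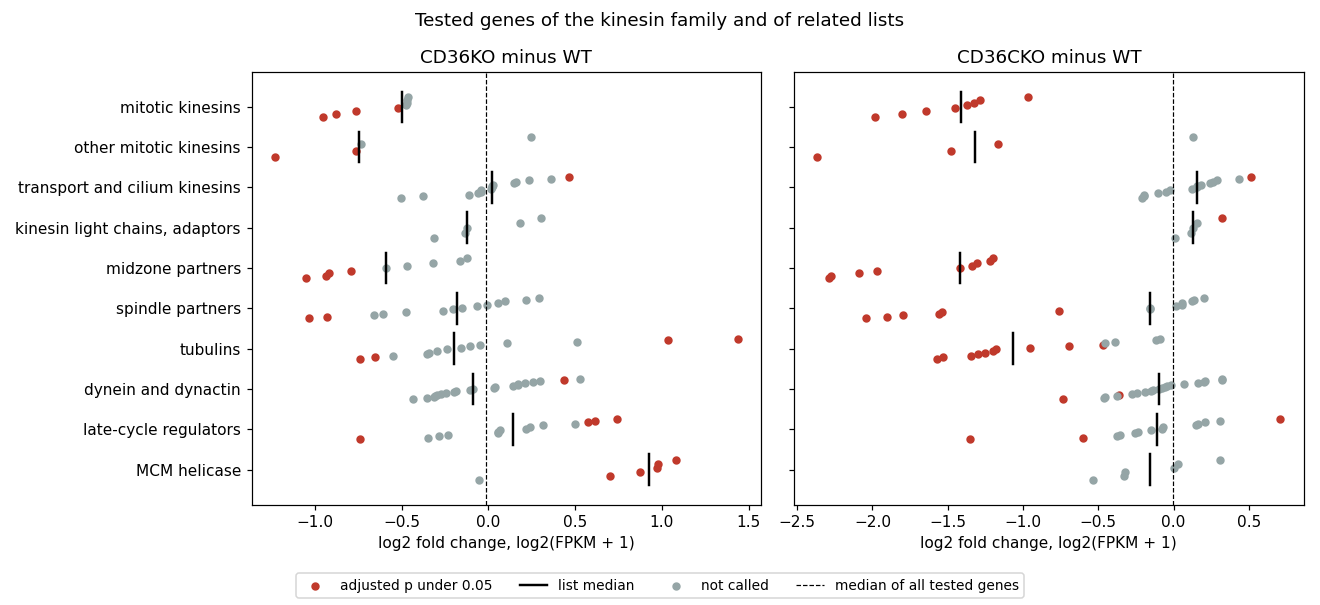
Log2 differences on the log2(FPKM + 1) scale of each tested gene in the kinesin lists and in 7 lists of related genes, for CD36KO minus WT (left) and CD36CKO minus WT (right); red points have an adjusted p under 0.05 over all tested genes, grey points were not called, the vertical bar is the list median and the dashed line is the median of all tested genes. The mitotic kinesins and midzone partners lie left of the dashed line in both panels, the MCM subunits lie to its right in CD36KO except Mcm7, and the tubulins are mostly red in CD36CKO.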

How the data were processed

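The authors deposited 1 table of FPKM per gene, which also lists each gene's symbol, interval and length. Per the submitters' processing notes, the tools included HISAT2, TopHat2, HISAT and CASAVA, with no version or role stated. The sources used here do not state the counter, the genome build, the annotation or the use of strand. Per the labels' protocols, the library kit was directional (dUTP). FPKM times the deposited gene length gave whole reads within 0.05 for 100% of values, and the authors' denominators were 0.986 to 1.13 times the library totals. The limit that a count of 0 allows, 3 reads, came to 0.128 to 0.192 FPKM at a gene length of 1 kb and covers counting error only.

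Log2(FPKM + 1) of the 12206 genes with a mean of at least 1 FPKM was fitted with limma 3.58.1 in R 4.3.3, all 9 libraries in 1 model with a mean per genotype (6 residual and 3.68 prior degrees of freedom). Tests were two-sided, with Benjamini-Hochberg adjustment over all tested genes and a threshold of 0.05. This scale understates changes of low genes. With 3 libraries against 3, an exact permutation test of a single value cannot go below p = 0.1, so none was used. Lists and groups are described by counts and medians. The kinesins and lists were chosen with earlier results of these data known. The genes named are the 10 kinesins, Cd36, all tested genes of the other mitotic kinesins, the 2 genes of each other list with the smallest p in each comparison with WT, every called gene of lists with 5 or fewer calls, and the 8 protein-coding genes most like the kinesin mean; other names were chosen after their values were seen. Replicate pairs differed by a chi-square of at least 14.4 per gene, so no library was counted as a copy. Correlations of deviations between same-numbered replicates were -0.433 to 0.141, and the labels name no pairs, so the numbers were not used as pairs. The summed kinesin level was nevertheless highest in replicate 3 of each genotype, at 30.3 FPKM in CD36KO, 11.9 FPKM in CD36CKO and 59.3 FPKM in WT. A fit with a replicate block is given below. The fit was also run on simulated data, but no outcome is given here and no result rests on it. Alternatives covered the pseudocount, the filter, scaling, library weights, a replicate block, voom on recovered reads, libraries left out and atrial level as a covariate. Figures were drawn with Python 3.11.15 and matplotlib 3.10.9.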

Additional observations from a re-analysis of the deposited data

How the results depend on the processing

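No difference of the 8 tested kinesins changed sign under the alternatives run: they ran from -1.13 to -0.15 in CD36KO minus WT, -2.63 to -0.74 in CD36CKO minus WT and 0.41 to 2.0 in CD36KO minus CD36CKO. The cause of the changed counts below was not tested. Leaving out a library also makes its group smaller, so a lost call cannot be assigned to that library. Kinesins called lower in CD36KO (4) numbered 1 with no filter, 1 at a mean of at least 5 FPKM, where Kif22 alone was tested, 2 with only the 2 groups fitted, and 0 with mitochondrial and haemoglobin genes removed, without the Ddx3y-expressing libraries or with the atrial covariate; with 1 library left out, 0 to 4. Those called lower in CD36CKO (8) numbered 1 with the atrial covariate and 1 under the filter of 5 FPKM; with 1 library left out, 6 to 8. Those higher in CD36KO than in CD36CKO (4) numbered 1 with no filter, at a mean of at least 5 FPKM, with mitochondrial and haemoglobin genes removed, without the Ddx3y-expressing libraries or with the atrial covariate, 6 at a pseudocount of 0.1 or 0.5, 7 after quantile normalization or with only the 2 groups fitted, and 8 with library weights; with 1 library left out, 1 to 8. Counts of kinesins called in the opposite direction were 0 throughout.

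All genes called in CD36KO minus WT (1527) numbered 743 with no filter, 1037 at a mean of at least 5 FPKM, 1031 with mitochondrial and haemoglobin genes removed, 838 with only the 2 groups fitted, 5811 with library weights, 200 without the Ddx3y-expressing libraries and 0 with the atrial covariate (780 at an unadjusted p under 0.05); with 1 library left out, 405 to 3203. In CD36CKO minus WT (1547) they numbered 753, 1000, 2026, 504, 4804, 412 and 10 under the same alternatives, and 330 to 3950 with 1 library left out. In CD36KO minus CD36CKO (553) they numbered 169, 338, 361, 1364, 1944, 48 and 76, and 29 to 1463 with 1 library left out. Of the calls, 53.6%, 57.7% and 42.5% were lower in these comparisons, against 31.0%, 20.1% and 57.9% with mitochondrial and haemoglobin genes removed, and 42.9% and 53.5% in the last 2 comparisons by voom. With a replicate block, 4 kinesins were called lower in CD36KO, 8 in CD36CKO and 6 higher in CD36KO than in CD36CKO, and 1004, 963 and 399 genes were called in all. In 8 of 18 comparisons of a library with another group, it correlated best with its own number. With only 3 candidates for each library, this count cannot decide whether the numbers are pairs.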

Other observations

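Markers of other cell types of the heart are given as values with no explanation. Of all tested genes, 5.81% were called higher and 6.7% lower in CD36KO than in WT, and 5.36% higher and 7.32% lower in CD36CKO. Of 7 endothelial markers, Kdr (0.58) and Cldn5 (0.84) rose and Tie1 (-0.47) fell in CD36KO relative to WT, and Tie1 (-0.48) fell in CD36CKO (limma adjusted p under 0.05 for each). The endothelial medians were 0.19 and 0.01, and in each knockout 4 of the 7 had positive and 3 negative differences. Of 7 mural markers, Rgs5 rose by 1.19 in CD36KO (adjusted p = 0.00219) and by 0.82 in CD36CKO (adjusted p = 0.00458), and Abcc9 rose by 1.18 in CD36KO (adjusted p = 0.0045) and by 0.94 in CD36CKO (adjusted p = 0.00887). The mural medians were 0.12 and 0.06, 2 of the 7 in CD36KO and 3 in CD36CKO had negative differences, and the lowest was Acta2 in both, at -1.25 (adjusted p = 0.103) and -0.74 (adjusted p = 0.286). Of 6 epicardial markers, Krt19 fell by 1.87 in CD36KO (adjusted p = 0.000237) and by 1.23 in CD36CKO (adjusted p = 0.000849), and Upk1b fell by 0.77 in CD36KO and by 0.63 in CD36CKO. The epicardial medians were -0.63 and -0.68, and 2 of the 6 had positive differences in each knockout, up to 0.23 in CD36KO and 0.43 in CD36CKO. Of 7 fibroblast markers, Dcn rose in CD36KO (0.55) and Tcf21 in CD36CKO (0.50), while 4 of the 7 had negative differences in each, with medians of -0.19 and -0.23. Of 6 macrophage markers, Cx3cr1 (0.92) and Adgre1 (0.59) rose in CD36KO and none was called in CD36CKO, where 1 was lower at an unadjusted p under 0.05. The macrophage medians were 0.33 and 0.13, and 1 of the 6 in CD36KO and 2 in CD36CKO had negative differences. Of 6 tested erythroid markers none was called in either knockout relative to WT, with 6 lower in CD36KO and 1 lower in CD36CKO at an unadjusted p under 0.05. Of 8 tested skeletal muscle markers none was called in either knockout, nor at an unadjusted p under 0.05. Of 8 cardiomyocyte markers, Pln rose in CD36KO (1.24) and CD36CKO (0.72), and Myh7 (-3.04) and Tnnt2 (-0.62) fell in CD36KO. The cardiomyocyte medians were -0.33 and -0.39, and 5 of the 8 in CD36KO and 6 in CD36CKO had negative differences.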
